A study of Danio rerio with 6 samples.

Results

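The eye field homeobox genes are followed here through the cell classes of the zebrafish retina at 48 hours post fertilisation (hpf). The 9 genes rx1, rx2, rx3, six3a, six3b, six6a, six6b, lhx2b and lhx9 were listed by name and not chosen by a measured level. Earlier results of these data were known when they were listed, and all 9 were found in the files. Their UMIs (unique molecular identifiers, 1 per captured transcript) were counted in 5606 barcodes with at least 1000 genes and at most 10% mitochondrial UMIs. The question was which genes stay in stem cells, progenitors, glia or photoreceptors, and which are kept in neurons.

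In fish and other vertebrates the eye field is the patch of anterior neural plate from which both eyes grow. It is marked by a shared set of transcription factors, among them the retinal homeobox (Rx) proteins, Six3 and Six6 of the sine oculis family, and the LIM homeodomain proteins Lhx2 and Lhx9, together with Pax6. Zebrafish rx3 is required for the optic vesicles to form, and rx1 and rx2 take over in the later retina. Growth continues in the fish from a ciliary margin that holds stem cells, while the central retina has largely left the cell cycle.

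All 6 libraries came from eyes dissected from pools of F1 embryos of 1 genotype, NRE-eGFP/HS5-mCherry, reared in PTU, which blocks pigment. Both human PAX6 enhancers sit in 1 cassette at a single landing site, where NRE drives eGFP and HS5 drives mCherry, so no group is a wild type or a mutant. Sorting gave 3 mCherry-enriched libraries (replicates 1 to 3) and 3 eGFP-enriched libraries (replicates 1 to 3), all at 48 hpf, made with a 3' droplet kit. The mCherry-enriched gate also took cells positive for both reporters, and eGFP-enriched cells were single positive by the study's methods. In the first round of sorting the mCherry sample was positive for both reporters, and that this round is replicate 1 is not stated in the sources used here. The labels give only a sort and a replicate number. By the study's sorting legend every round gave both an eGFP and an mCherry sample. If the number is the round, the 6 libraries may come from only 3 pools of embryos. The tests between cell classes below counted each library as independent and did not model such sharing. Their p-values measure only the spread between these libraries, and so do those between the sorts.

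Libraries held 14307132 to 86803928 UMIs and 85 to 2303 kept barcodes. Of the kept barcodes 5094 were retinal and 512 were not, and 4838 retinal barcodes fell into 13 classes named from marker genes that include no eye field gene. The eye field genes were also left out of the clustering. A class name ends in -like because it rests on markers. PR stands for photoreceptor and RGC for retinal ganglion cell. Levels are given in CPM, which is UMIs of the gene per 1000000 UMIs of all barcodes of 1 class in 1 library, for libraries with at least 10 barcodes of the class. Doublets were not removed, and 4 barcode sequences occurred in more than 1 library.

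Replicate 1 of both sorts stood apart from the other libraries. In their progenitor-like barcodes 9 of 9 RGC markers had UMIs and together reached 707 CPM (mCherry-enriched) and 850 CPM (eGFP-enriched), which was 11.6% and 17.9% of their level in RGC-like barcodes. In the 3 other libraries with enough RGC-like barcodes that share was 0.507% to 4.46%. The 10 amacrine markers gave 22.0% and 26.8% in replicate 1 against 3.33% to 4.45% in the same others. RGC markers had UMIs in progenitor-like barcodes of the others too (7 of 9 in mCherry-enriched replicate 2, 9 of 9 elsewhere), at 541 and 655 CPM in replicate 2 of the sorts and 110 and 75.5 CPM in replicate 3 (mCherry-enriched first). The amacrine markers reached 1147 and 1218 CPM in replicate 1 and 233 to 278 CPM in the 4 others. The neuron comparison and the counts per class are given also without replicate 1 of both sorts, and the part of this background in the results was not tested.

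Summed over classes, most eye field genes were higher either in dividing cells or in neurons. Levels in the summed stem cell-like and progenitor-like barcodes (1255) were compared with those in 8 summed neuron classes (2942) within each of 6 libraries. The 8 were the early, ON and OFF bipolar-like, both amacrine-like, horizontal-like, early RGC-like and RGC-like classes, and neurons means these 8 below. Both photoreceptor-like classes were in neither sum, and PR-like cells had the highest mean rx2 and six6a of the named classes (119 CPM each). The expression of rx1 and rx2 fell in neurons, and that of rx3, six3a, six3b, six6a, six6b and lhx9 was higher there, by the quasi-likelihood test of edgeR, adjusted over 8829 genes after Benjamini and Hochberg. In that comparison 47.5% of all genes tested passed the adjusted p of 0.05, 22.7% higher in neurons and 24.7% lower, beside 6 and 2 of the 9 eye field genes. Over all genes the median log2 fold change was 0.02, and over the 9 genes it was 0.97. A neuron sum can rest on few classes. Mean lhx9 was 250 CPM in amacrine-like cells and 26.0 to 63.2 CPM in the other neuron classes, against 37.9 CPM in progenitor-like cells. In RGC-like and early RGC-like cells it was called lower than in the rest, though not under every alternative. Mean rx3 was 264 CPM in OFF bipolar-like and 83.5 and 72.1 CPM in early and ON bipolar-like cells. In the other neuron classes it was 5.11 to 23.7 CPM, and in progenitor-like cells 8.02 CPM.

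The retinal homeobox genes did not move together. In stem cell-like and progenitor-like barcodes rx1 had 78.2, 98.6 and 144 CPM (lowest, median and highest library), and in neurons 4.41, 12.5 and 34.3 CPM. The ranges did not overlap, and rx1 was lower in neurons in 6 of 6 libraries. The log2 fold change of rx1 was -2.73 ± 0.47 (SE, n = 6 libraries, edgeR adjusted p = 0.0060).

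The related gene rx2 had 14.8, 32.1 and 38.3 CPM in the dividing classes and 0, 1.09 and 11.4 CPM in neurons. It too was lower in neurons in 6 of 6 libraries with ranges apart, and its log2 fold change was -2.92 ± 0.76 (SE, n = 6, edgeR adjusted p = 0.015). The opposite was measured for rx3, the gene that opens eye formation. It had 0, 1.99 and 24.8 CPM in stem cell-like and progenitor-like barcodes and 30.8, 41.6 and 74.7 CPM in neurons. Thus rx3 was higher in neurons in 6 of 6 libraries with no overlap, by 2.44 ± 0.64 on the log2 scale (SE, n = 6, edgeR adjusted p = 0.016).

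The sine oculis family genes encode homeodomain factors that in vertebrates act in forebrain, eye and retinal progenitor development. In the neuron sum 3 of 4 were plainly higher, though none of these (six3a, six3b and six6b) was so in every neuron class. The paralogue six3a had 9.57, 30.0 and 62.2 CPM in the dividing classes and 67.2, 104 and 151 CPM in neurons, a log2 fold change of 1.46 ± 0.27 (SE, n = 6, edgeR adjusted p = 0.0063). Its partner six3b had 75.1, 102 and 163 CPM against 175, 252 and 323 CPM, a log2 fold change of 0.97 ± 0.18 (adjusted p = 0.0062 by edgeR). Mean six3b was 55.7 CPM in horizontal-like cells and 186 to 609 CPM in the other neuron classes, against 100 CPM in progenitor-like cells. For six6b the values were 76.6, 138 and 195 CPM against 217, 269 and 325 CPM, with a log2 fold change of 0.70 ± 0.15 (adjusted p = 0.0077 by edgeR). Mean six6b was 170 ± 42.5 CPM in early bipolar-like cells (SD, n = 5) and 221 to 427 CPM in the other neuron classes. In progenitor-like cells it was 154 ± 38.8 CPM (SD, n = 6). None of these 3 genes had overlapping ranges between dividing classes and neurons. How many of all genes had ranges apart was not counted, so this is a description of these genes and of rx1, rx2 and rx3. These calls, and those of rx1, rx2 and rx3, were kept under each of the 16 or 17 alternatives in which the gene could be tested. Whether the 3' counting could split reads between the paralogues of a pair was not tested. By class, mean six3a was 132 to 260 CPM in amacrine-like, horizontal-like, early RGC-like and RGC-like cells, against 34.6 CPM in progenitor-like cells. In ON, early and OFF bipolar-like and cholinergic amacrine-like cells it was 53.1, 40.6, 16.0 and 20.7 CPM. There it was called lower than in the rest, only in OFF bipolar-like cells under every alternative.

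Less firm were six6a and lhx9. By class mean six6a was 53.0 CPM in amacrine-like cells and 1.61 to 26.4 CPM in the other neuron classes, against 8.54 CPM in progenitor-like cells. Levels of six6a were 3.57, 9.54 and 16.7 CPM in dividing classes and 11.7, 26.1 and 40.8 CPM in neurons, so the ranges overlapped although 6 of 6 libraries were higher in neurons. Its log2 fold change of 1.16 ± 0.37 (edgeR adjusted p = 0.032) no longer passed without mCherry-enriched replicate 3 (1.01, adjusted p = 0.10), eGFP-enriched replicate 2 (1.104, adjusted p = 0.061) or eGFP-enriched replicate 3 (0.75, adjusted p = 0.086). The LIM homeodomain gene lhx9 had 9.01, 23.9 and 72.1 CPM against 41.1, 91.0 and 138 CPM and was also higher in 6 of 6 libraries. Its log2 fold change of 1.55 ± 0.51 (edgeR adjusted p = 0.034) did not pass when mCherry-enriched replicate 2, mCherry-enriched replicate 3 or eGFP-enriched replicate 3 was left out. It was then 1.52, 1.24 and 1.05 in that order, with edgeR adjusted p of 0.074, 0.10 and 0.080. At a minimum of 1500 genes neither passed (six6a 1.19, adjusted p = 0.082, and lhx9 1.97, adjusted p = 0.065).

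The remaining gene, lhx2b, whose mouse relative Lhx2 is needed for the optic vesicle to become an optic cup, did not pass the test. It had 4.79, 22.9 and 39.2 CPM in the dividing classes and 20.2, 38.4 and 60.9 CPM in neurons, with a log2 fold change of 0.53 ± 0.23 (edgeR adjusted p = 0.086), and was higher in neurons in 5 of 6 libraries. It passed without eGFP-enriched replicate 1 (0.77, edgeR adjusted p = 0.029). The contrast between the classes was smallest in replicate 1 of both sorts, where the median size of the log2 ratio over the 9 genes was 0.58 and 0.67 against 1.79 to 2.67 in the other 4 libraries. For example, rx1 in neurons was 33.9 and 34.3 CPM in replicate 1 and 4.41 to 15.7 CPM elsewhere, and rx3 in dividing classes was 18.6 and 24.8 CPM in replicate 1 and 0 to 2.31 CPM elsewhere.

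Without replicate 1 of both sorts all 9 genes passed the edgeR test, where 67.4% of all genes did (4275 of 6342), with rx1 at -3.60, rx2 at -5.31, rx3 at 4.69, six3a at 2.08, six3b at 1.36, six6a at 2.205, six6b at 0.94, lhx2b at 0.99 and lhx9 at 3.14 on the log2 scale (4 libraries). Within each sort the mean log2 ratio kept its sign for every gene, for example rx1 at -2.76 ± 1.54 (mCherry-enriched) and -2.88 ± 1.54 (eGFP-enriched), and rx3 at 3.42 ± 1.81 and 3.55 ± 2.45 (SD, n = 3 each).

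**Figure D1:**
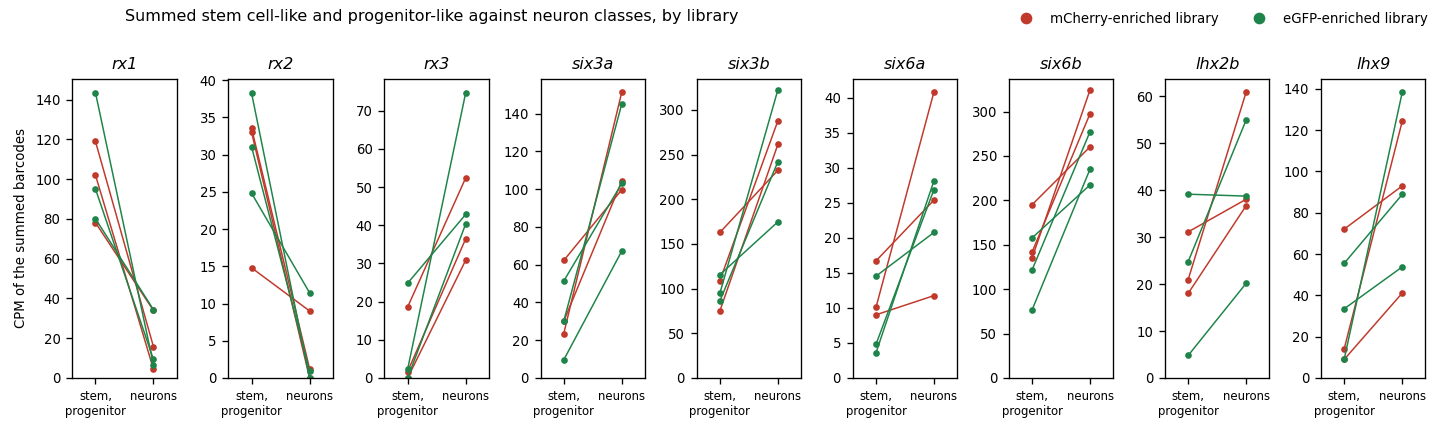
Level of each eye field gene in CPM (y axis, linear from 0, own scale per gene) in the summed stem cell-like and progenitor-like barcodes and in the summed neuron classes, with a line for each of the 6 libraries, red for mCherry-enriched and green for eGFP-enriched. Every line falls for rx1 and rx2 and every line rises for rx3, six3a, six3b, six6a, six6b and lhx9, while 5 of 6 rise for lhx2b. The neuron classes leave out the photoreceptor-like ones.

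Among the wider eye field partners, the transcription factors and regulators that work beside these genes, 12 are reported in the same comparison, where 5 were higher in neurons, 2 were lower and 5 did not pass, beside 22.7% and 24.7% of all genes higher and lower. These were pax6a (1.32 ± 0.22), pax6b (1.57 ± 0.24), mab21l1 (1.47 ± 0.27), hmx1 (1.04 ± 0.24) and hmx4 (1.11 ± 0.20; log2 fold change ± SE, edgeR adjusted p at most 0.0099). Lower in neurons were otx2b (-0.66 ± 0.14), a photoreceptor and bipolar factor, and gmnn (-2.28 ± 0.35), which restrains DNA replication licensing, with edgeR adjusted p of at most 0.0088. Those that did not pass were tbx2b, mab21l2, tle3b, sox2 and six7. Of these sox2 was at -0.24 ± 0.18 (adjusted p = 0.29) and six7, a photoreceptor gene in zebrafish, at -0.10 ± 0.42 (adjusted p = 0.87).

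Each class was then set against the rest of the retinal barcodes in its libraries, with the library as a covariate. Of 117 pairs of an eye field gene and a class, 61 passed edgeR's adjusted p of 0.05, 23 higher and 38 lower, against 17.6% of all pairs of a gene and a class. Of these 61, 22 passed under every alternative in which they could be tested, and 39 were lost under at least 1. The count was 32 without eGFP-enriched replicate 3 and 38 without mCherry-enriched replicate 3, where 9.19% and 9.05% of all pairs passed. Changes named below belong to the 22 unless an exception is given, and the remaining classes are described by their levels.

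Without replicate 1 of both sorts, a setting chosen after seeing the data, 94 pairs passed where 32.5% of all pairs did. Of the 61 calls 60 passed again in the same direction, the 22 kept ones among them, and none of the 61 turned sign. The exception was six6a in ON bipolar-like cells (-0.72, edgeR adjusted p = 0.16), and the fold change was larger in size for 57 of the 61. How often the fold change was larger over all genes was not counted. The count rose from 5 to 7 in progenitor-like, from 1 to 9 in PR progenitor-like, from 1 to 7 in horizontal-like and from 3 to 8 in early RGC-like cells, where 50.2%, 37.9%, 11.3% and 15.9% of all genes then passed.

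**Figure D2:**
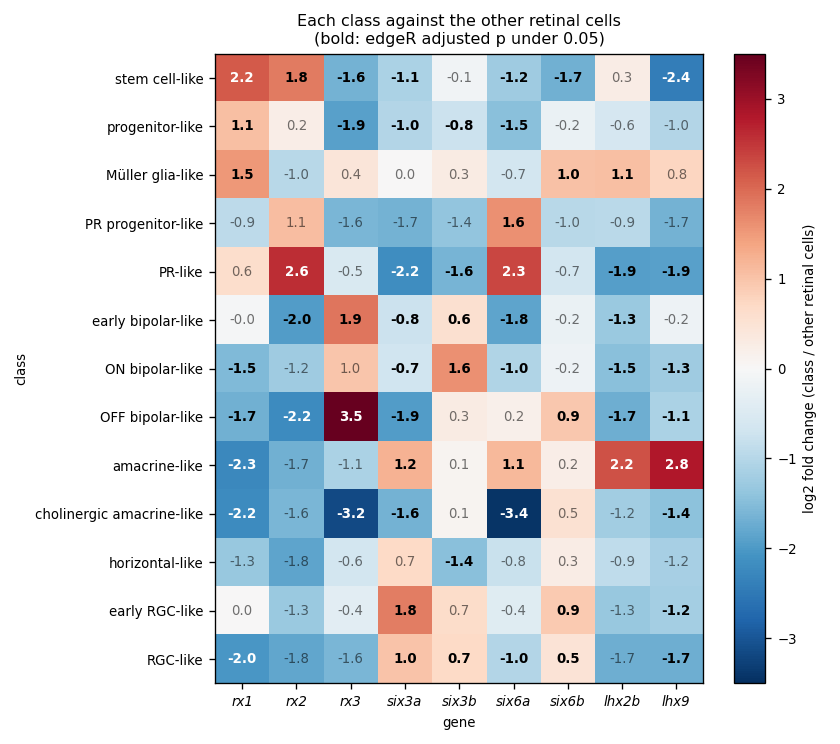
Log2 fold change of each eye field gene (columns) in each class (rows) against the other retinal cells of the same libraries, from red (higher) to blue (lower), with bold numbers where edgeR's adjusted p was under 0.05. PR is photoreceptor and RGC is retinal ganglion cell; the 61 bold cells are unevenly placed, with rx1 higher in the stem cell-like, progenitor-like and Müller glia-like rows and rx3 at 3.5 in the OFF bipolar-like row.

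Stem cell-like cells kept rx1 and rx2. In this class of 163 barcodes, which carried col15a1b, fabp11a and nucleolar genes as its markers, rx1 had 209, 132 and 160 CPM (mCherry-enriched replicate 3, eGFP-enriched replicates 1 and 3) against 42.3 ± 6.82 CPM in the other retinal cells (SD, n = 3 libraries). All 3 libraries were higher in the class, by 2.16 ± 0.24 on the log2 scale (SE, edgeR adjusted p = 0.00089). The values of rx2 were 67.0, 46.0 and 58.3 CPM against 17.9 ± 3.40 CPM in the rest, higher in 3 of 3 libraries, and its log2 fold change was 1.81 ± 0.24 (edgeR adjusted p = 0.0018).

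Also in stem cell-like barcodes six6b and lhx9 were lower than elsewhere. In the same order of libraries six6b had 51.3, 94.7 and 31.5 CPM against 208 ± 15.3 CPM in the rest, and lhx9 had 15.8, 23.3 and 1.94 CPM against 78.7 ± 7.09 CPM. Both were lower in 3 of 3 libraries, by -1.67 ± 0.32 and -2.43 ± 0.51 on the log2 scale (SE, edgeR adjusted p = 0.0070 and 0.010). In this class 2 eye field genes passed as higher and 5 as lower, where 35.5% of all genes passed, 20.6% higher and 14.8% lower. The median log2 fold change was -1.11 over the 9 genes and -0.09 over all genes.

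Progenitor-like cells (1092 barcodes) held rx1 at an intermediate level. It ranged from 67.8 to 94.8 CPM with a mean of 78.2 ± 10.4 CPM (SD, n = 6) against 47.7 ± 15.9 CPM in the other retinal cells, a log2 fold change of 1.05 ± 0.21 (SE, edgeR adjusted p = 0.010), higher in 5 of 6 libraries. The neural gene six3a averaged 34.6 ± 16.7 CPM against 85.0 ± 20.8 CPM (SD, n = 6), lower in 6 of 6 libraries, by -1.04 ± 0.21 (SE, edgeR adjusted p = 0.011). Here 27.9% of all genes passed, 14.7% higher and 13.3% lower, with 1 eye field gene higher and 4 lower. Between the stem cell-like and progenitor-like classes rx1 and rx2 were higher in the former in each shared library, but the 2 classes were not tested against each other.

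Müller glia-like cells, the support cells from which fish can regenerate neurons, kept rx1 and six6b. In 149 barcodes rx1 had 100, 136, 144 and 242 CPM (mCherry-enriched replicates 1 and 3, eGFP-enriched replicates 1 and 3) against 48.9 ± 5.78 CPM in the rest (SD, n = 4). All 4 libraries were higher, by 1.52 ± 0.25 on the log2 scale (SE, edgeR adjusted p = 0.0012). In the same order six6b had 404, 516, 336 and 571 CPM against 201 ± 20.4 CPM, again higher in 4 of 4, with a log2 fold change of 1.02 ± 0.18 (SE, edgeR adjusted p = 0.0020).

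Of the LIM genes lhx2b was also higher in this class, while lhx9 did not pass. Levels of lhx2b were 73.7, 149, 62.2 and 101 CPM in the same 4 libraries against 38.2 ± 1.55 CPM, a log2 fold change of 1.05 ± 0.22 (SE, edgeR adjusted p = 0.0064) that did not pass at a minimum of 1500 genes (0.80, adjusted p = 0.084). For lhx9 the mean was 149 ± 53.8 CPM against 74.9 ± 7.46 CPM, higher in 3 of 4 libraries, with an edgeR adjusted p of 0.051. It passed in 6 of 15 alternatives, among them that without mCherry-enriched replicate 1 (log2 fold change 0.99, edgeR adjusted p = 0.012). No eye field gene passed as lower in Müller glia-like cells, and 3 passed as higher, where 11.8% of all genes passed, 7.12% higher and 4.68% lower. The partner sox2 (1.54 ± 0.21), a factor of progenitors and glia, was higher too, and pax6a was lower (-1.56 ± 0.23; SE, edgeR adjusted p at most 0.00045).

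Photoreceptor-like cells kept rx2 and six6a. Levels of rx2 in 195 PR-like barcodes were 155, 98.8, 61.3 and 162 CPM (mCherry-enriched replicates 2 and 3, eGFP-enriched replicates 1 and 3) against 16.5 ± 1.46 CPM in the rest, higher in 4 of 4 libraries. The log2 fold change of rx2 was 2.59 ± 0.31 (SE, edgeR adjusted p = 8.0e-05). In the same order six6a had 137, 98.8, 98.1 and 144 CPM against 23.1 ± 8.18 CPM, a log2 fold change of 2.33 ± 0.29 (SE, edgeR adjusted p = 9.6e-05). Neither gene had an overlap between class and rest.

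The six3 genes were low in PR-like cells. In the same order six3a had 0, 8.98, 34.8 and 8.70 CPM, and six3b had 85.8, 35.9, 86.5 and 37.7 CPM. Their log2 fold changes were -2.16 ± 0.43 and -1.63 ± 0.33 (SE, edgeR adjusted p = 0.0041 and 0.0040), and both passed in every alternative but that of a minimum of 1500 genes (adjusted p = 0.13 and 0.19). In all, 2 eye field genes were higher and 4 lower, where 16.2% of all genes passed, 7.79% higher and 8.4% lower. The zebrafish photoreceptor factor six7 was at 3.56 ± 0.31 in the same cells, with pax6a at -3.21 ± 0.57 (log2 fold change ± SE, edgeR adjusted p = 6.8e-06 and 0.0019).

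The younger PR progenitor-like class (297 barcodes) also held six6a. Its levels were 96.1, 127, 41.7 and 61.8 CPM (mCherry-enriched replicates 1 and 3, eGFP-enriched replicates 1 and 3) against 24.3 ± 3.71 CPM, higher in 4 of 4 libraries. The log2 fold change of 1.59 ± 0.22 (SE, edgeR adjusted p = 0.024) did not pass when mCherry-enriched replicate 1, mCherry-enriched replicate 3 or eGFP-enriched replicate 3 was left out (1.47, 1.46 and 1.62, with edgeR adjusted p of 0.059, 0.13 and 0.050). Nor did it at a resolution of 1.0 (0.36, edgeR adjusted p = 0.91). There the cluster of that name had only 92 barcodes, with ccnd1, mcm4 and mcm2 among its leading genes. Another cluster of 207 barcodes, whose best match was also PR progenitor, was left unnamed. The class at that resolution may thus hold different cells. In this class rx2 averaged 38.8 ± 25.2 CPM (SD, n = 4), below its means in PR-like and stem cell-like cells. Here 2.6% of all genes passed, 2.19% higher and 0.41% lower, with 1 eye field gene higher. Without replicate 1 of both sorts, which leaves 2 libraries, all 9 passed beside 37.9% of all genes. Then rx2 (1.81) and six6a (1.67) were higher, and rx1 (-2.22), rx3 (-3.88), six3a (-3.65), six3b (-2.97), six6b (-1.74), lhx2b (-1.52) and lhx9 (-3.40) were lower on the log2 scale.

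Bipolar cells, the interneurons that carry the signal from photoreceptors, fell into 3 classes, and those named ON and OFF were not tested against each other. The clustering on log-normalised values gave no OFF bipolar-like class. OFF bipolar-like cells (345 barcodes) had the highest mean rx3 of the 13 classes, with 143, 214, 143, 188 and 633 CPM (mCherry-enriched replicates 1 to 3, eGFP-enriched replicates 1 and 3) against 20.5 ± 11.5 CPM in the rest. All 5 libraries were higher without overlap, by 3.47 ± 0.40 on the log2 scale (SE, edgeR adjusted p = 3.5e-05). In the same order six6b had 303, 618, 357, 342 and 516 CPM against 209 ± 27.3 CPM, a log2 fold change of 0.95 ± 0.17 (SE, edgeR adjusted p = 0.0011).

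The same OFF bipolar-like cells had little rx1, rx2 or six3a, at 12.1 ± 13.5, 2.88 ± 3.21 and 16.0 ± 14.8 CPM (mean ± SD, n = 5). Their log2 fold changes were -1.69 ± 0.35, -2.21 ± 0.46 and -1.95 ± 0.36 (SE, edgeR adjusted p = 0.0028, 0.0032 and 0.0014), and each was lower in 5 of 5 libraries. So in OFF bipolar-like cells rx3 was high and its paralogues were low. This did not hold in every class. In RGC-like cells rx1 and rx2 were also low (means of 14.2 and 4.31 CPM), and so was rx3 (11.7 CPM). In the OFF bipolar-like class 2 eye field genes were higher and 5 lower, where 26.4% of all genes passed, 11.1% higher and 15.3% lower. The factor otx2b was higher as well (1.11 ± 0.15, edgeR adjusted p = 0.00017).

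ON bipolar-like cells (383 barcodes) had the highest mean six3b of the 13 classes, with 344, 722, 678, 310 and 988 CPM (mCherry-enriched replicates 1 to 3, eGFP-enriched replicates 1 and 3) against 161 ± 24.3 CPM. All 5 libraries were higher, with a log2 fold change of 1.59 ± 0.22 (SE, edgeR adjusted p = 0.00089). The LIM gene lhx2b averaged 15.1 ± 9.61 CPM against 41.1 ± 1.96 CPM, lower by -1.46 ± 0.30 (SE, edgeR adjusted p = 0.0061). Here 1 eye field gene was higher and 5 were lower, with 27.8% of all genes past the threshold, 11.1% higher and 16.7% lower.

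Early bipolar-like cells (466 barcodes) had little rx2, six6a and lhx2b. Their means were 3.04 ± 4.23, 14.3 ± 14.2 and 14.8 ± 10.5 CPM (SD, n = 5), and their log2 fold changes -1.96 ± 0.45, -1.85 ± 0.34 and -1.30 ± 0.25 (SE, edgeR adjusted p = 0.0048, 0.00091 and 0.0013). In this class rx3 had 92.1, 0, 79.9, 99.2 and 146 CPM (mCherry-enriched replicates 1 to 3, eGFP-enriched replicates 1 and 3) against 26.4 ± 8.71 CPM. The log2 fold change of rx3 was 1.88 ± 0.23 (SE, edgeR adjusted p = 1.9e-05), and -0.06 (edgeR adjusted p = 0.91) with log-normalised clustering. The class of that name was then led by ptf1a, gadd45gb.1 and neurod4, and the main class by vsx1. Its markers had a mean log2 difference of 1.02 against 2.15, so the 2 classes may hold different cells. In the main class 23.4% of all genes passed, 9.33% higher and 14.1% lower, with 2 eye field genes higher and 4 lower.

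Amacrine-like cells, the inhibitory neurons of the inner retina, carried both LIM genes. Among 795 barcodes lhx9 had 215, 146, 331, 194 and 366 CPM (mCherry-enriched replicates 1 to 3, eGFP-enriched replicates 1 and 3) against 37.3 ± 22.8 CPM in the rest. All 5 libraries were higher, by 2.80 ± 0.42 on the log2 scale (SE, edgeR adjusted p = 0.0091). In the same order lhx2b had 73.3, 203, 174, 80.2 and 147 CPM against 25.4 ± 7.40 CPM, higher in 5 of 5.

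The log2 fold change of lhx2b, 2.23 ± 0.37 (SE, edgeR adjusted p = 0.012), did not pass without mCherry-enriched replicate 3 (1.99, adjusted p = 0.052). For six3a the amacrine-like mean was 166 ± 47.3 CPM against 65.3 ± 7.68 CPM, higher in 5 of 5 libraries. Its log2 fold change of 1.22 ± 0.21 (edgeR adjusted p = 0.013) likewise missed the threshold without mCherry-enriched replicate 3 (1.05, adjusted p = 0.053). In amacrine-like cells 4 eye field genes were higher and 1 lower, with 16.1% of all genes past the threshold, 6.32% higher and 9.77% lower. The partners pax6a (1.56 ± 0.26), pax6b (1.47 ± 0.17), mab21l1 (1.36 ± 0.18) and mab21l2 (1.92 ± 0.25) were higher as well (log2 fold change ± SE, edgeR adjusted p at most 0.012).

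The cholinergic amacrine-like class (124 barcodes) had low levels of several of these genes. No eye field gene was called higher there, and rx1, rx3, six3a, six6a and lhx9 were called lower, none of them under every alternative, where 13.7% of all genes passed, 5.89% higher and 7.78% lower. Its mean lhx9 was under that of the amacrine-like class in each shared library, and six6a was at 1.61 CPM on average over 3 libraries. No direct test between the 2 amacrine classes was run. Of the 13 classes horizontal-like cells (141 barcodes) had the lowest mean six3b, with 22.5, 98.8 and 45.8 CPM (mCherry-enriched replicate 3, eGFP-enriched replicates 1 and 3). There 3.02% of all genes passed, 2.13% higher and 0.894% lower, with 1 eye field gene lower. Without replicate 1 of both sorts six3a passed as higher (1.14) and rx1, rx2, six3b, six6a, lhx2b and lhx9 as lower, beside 11.3% of all genes. Apart from rx2 the lower genes lay between -4.73 (rx1) and -2.19 (six3b) on the log2 scale (2 libraries). In these 2 libraries rx2 had 0 CPM, so the size of its value (-9.81 ± 2.52, SE) was set by the fit and is not a measured fold.

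Ganglion cells, the output neurons, kept six3a. In 131 early RGC-like barcodes it had 169, 427, 140 and 305 CPM (mCherry-enriched replicates 1 and 3, eGFP-enriched replicates 1 and 3) against 73.7 ± 4.49 CPM in the rest, higher in 4 of 4 libraries. Its log2 fold change was 1.78 ± 0.26 (SE, edgeR adjusted p = 0.0040), in a class where 3.13% of all genes passed, 2.08% higher and 1.05% lower, and 2 eye field genes were higher and 1 lower. In 557 RGC-like barcodes six3a had 104, 131, 163, 126 and 237 CPM (mCherry-enriched replicates 1 to 3, eGFP-enriched replicates 1 and 3), a log2 fold change of 0.99 ± 0.18 (edgeR adjusted p = 0.0092) that was 0.88 (adjusted p = 0.053) with log-normalised clustering. In RGC-like cells 25% of all genes passed, 15.1% higher and 9.91% lower, with 3 eye field genes higher and 3 lower. The partners hmx4 (2.42 ± 0.24) and hmx1 (1.80 ± 0.22), known in fish for eye development, were high in the same cells (log2 fold change ± SE, edgeR adjusted p at most 0.0027).

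**Figure D3:**
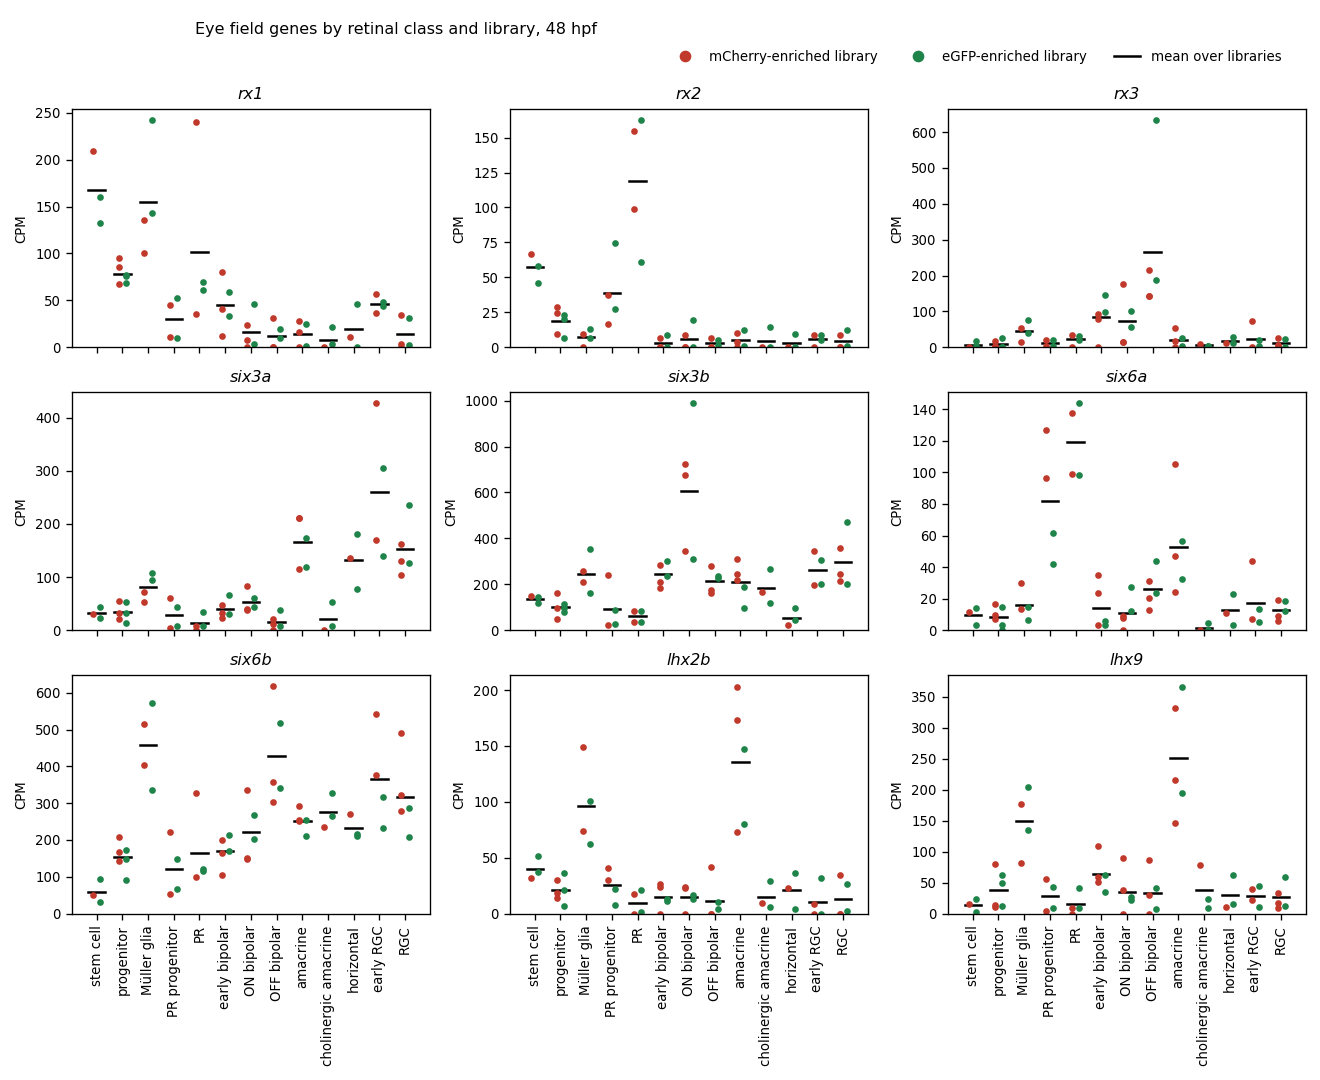
Level of each eye field gene in CPM (y axis, linear from 0, own scale per gene) in the 13 retinal classes (x axis). Each point is 1 library with at least 10 barcodes of the class, red for mCherry-enriched and green for eGFP-enriched, and the bar is the mean. PR is photoreceptor and RGC retinal ganglion cell. The highest mean lies in a different place for most genes: rx1 in stem cell-like (167 CPM), rx2 and six6a in PR-like (119 CPM each), rx3 in OFF bipolar-like (264 CPM), six3a in early RGC-like (260 CPM), six3b in ON bipolar-like (609 CPM), six6b in Müller glia-like (457 CPM), and lhx2b and lhx9 in amacrine-like cells (136 and 250 CPM).

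The order of classes was often shallow against the spread between libraries. For rx1 the first steps, from stem cell-like (167 ± 38.8 CPM) to Müller glia-like (155 ± 60.7) and on to PR-like (102 ± 93.5) and progenitor-like cells (78.2 ± 10.4), were each smaller than the larger SD of the pair. Without mCherry-enriched replicate 2 the PR-like mean of rx1 was 55.6 ± 17.5 CPM (SD, n = 3), under that of progenitor-like cells. For rx2 the step from PR-like (119 ± 47.9 CPM) to stem cell-like cells (57.1 ± 10.6) was larger than it. No step between neighbouring classes exceeded the larger SD for rx3 or six6b. These orders are descriptions, and each SD covers 3 to 6 libraries.

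The share of barcodes with a UMI was taken after each barcode had been thinned to 1000 UMIs. In the class with the highest mean level it was well above that of cells outside the retina for all 9 genes. That class was picked from the same UMIs, so this is a description and not separate evidence. It was 17.8% for rx1 in stem cell-like cells (29 of 163, 95% exact Clopper-Pearson interval 12.3% to 24.5%), 12.8% for rx2 and 10.3% for six6a in PR-like, and 16.2% for rx3 in OFF bipolar-like cells. It was 22.1% for six3a in early RGC-like, 31.3% for six3b in ON bipolar-like, 34.2% for six6b in Müller glia-like cells, and 8.68% for lhx2b and 20.4% for lhx9 in amacrine-like cells. By share, Müller glia-like cells stood above these classes for rx1 (23.5%) and lhx2b (10.1%). In the 512 barcodes outside the retina the thinned shares were 0.391% to 2.54%. Intervals cover counting error only, and a share at this depth counts cells with a captured transcript, not all cells that express the gene.

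With all UMIs the same shares were 74.8% (rx1), 56.9% (rx2), 24.3% (rx3), 80.2% (six3a), 52.5% (six3b), 40% (six6a), 90.6% (six6b), 26.3% (lhx2b) and 49.7% (lhx9). The median depth was 18185 UMIs in stem cell-like, 5758 in PR-like, 3829 in OFF bipolar-like, 8486 in early RGC-like, 3290 in ON bipolar-like, 5929 in Müller glia-like and 7420 in amacrine-like barcodes. In barcodes outside the retina, at a median of 12890.5 UMIs, the shares with all UMIs were 2.34% to 13.9%. The 9 genes were also present in free RNA, from 1.48 CPM for rx2 to 159 CPM for six6b in barcodes of at most 100 UMIs. Free RNA was not subtracted, and class levels at or below a gene's own level in free RNA are not evidence of expression.

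Müller glia-like cells had the highest mean number of eye field genes detected per barcode. Thinned to 1000 UMIs, a barcode had a UMI of 1.20 ± 0.066 of the 9 genes (SD, n = 4 libraries), against 0.897 ± 0.205 in early RGC-like, 0.792 ± 0.078 in amacrine-like, 0.437 ± 0.082 in progenitor-like and 0.198 ± 0.076 in non-retinal barcodes. Of the thinned Müller glia-like barcodes 32.9% had a UMI of 2 or more of the 9. With all UMIs 0.671% of Müller glia-like barcodes had none of the 9. The difference between classes was not tested.

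**Figure D4:**
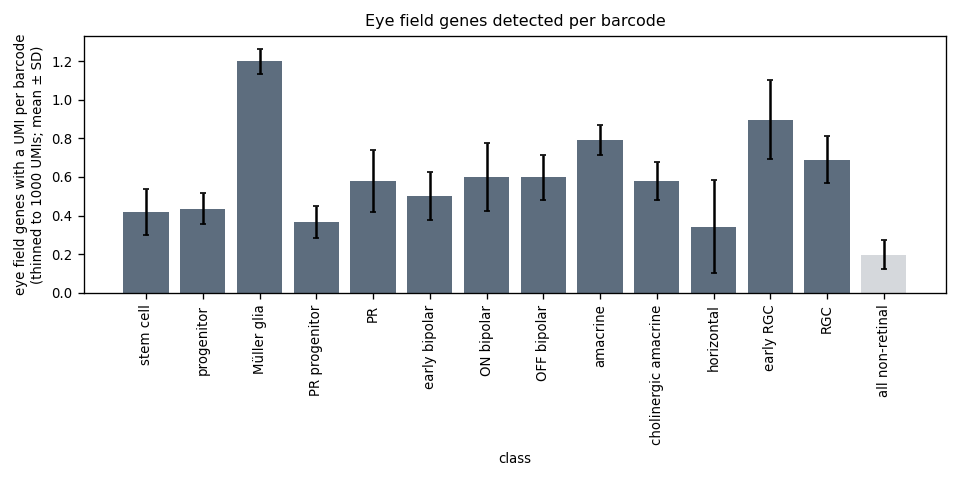
Mean number of the 9 eye field genes with at least 1 UMI per barcode after thinning to 1000 UMIs (y axis, linear from 0) in the 13 retinal classes and in all non-retinal barcodes (grey). Bars are means over libraries with at least 10 barcodes and error bars the SD; PR is photoreceptor and RGC retinal ganglion cell. Müller glia-like cells stand highest at 1.20 and non-retinal barcodes lowest at 0.198.

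Detection of both paralogues of a pair in the same barcode was described by class. Of amacrine-like barcodes thinned to 4000 UMIs, 26.3% of those with six3a also had six3b (44 of 167, exact interval 19.8% to 33.7%), against 14.5% of those without (74 of 512, 11.5% to 17.8%). In Müller glia-like barcodes these shares of six3b were 62.1% (42.3% to 79.3%) against 69.9% (58.8% to 79.5%). In horizontal-like barcodes they were 14.3% (4.81% to 30.3%) against 17.8% (10.5% to 27.3%). The intervals overlapped in both classes, so no direction was read. In amacrine-like cells six6b was found in 33.3% of barcodes with six6a (22.7% to 45.4%) and in 52.1% of those without (48.0% to 56.1%). In PR-like cells it was found in 36.2% (22.7% to 51.5%) and 27.4% (19.1% to 36.9%), with overlapping intervals. In stem cell-like barcodes rx2 was found in 27.1% of those with rx1 (16.4% to 40.3%) and 16.7% of those without (9.42% to 26.4%), and these intervals overlapped. Barcodes of several libraries were pooled for these shares, and no test was made. In horizontal-like cells six3b (22.5 to 98.8 CPM) lay under its level in free RNA of the same libraries (122 to 156 CPM). In PR-like cells six6b did so except in mCherry-enriched replicate 2, at 98.8 to 120 CPM against 150 to 159 CPM. Shares of these genes in these classes are not evidence of shared expression. In amacrine-like cells six3b had 97.5 to 309 CPM by library, against 106 to 156 CPM in free RNA. Its lowest library there thus lay under free RNA, and the part of free RNA in the amacrine-like shares of six3b was not tested.

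Patterns over classes were compared by Pearson's r of log2(CPM + 1) over the 13 class means, which share libraries and depth. Between members lhx2b and lhx9 were most alike (r = 0.73), followed by rx1 and rx2 (0.63), and rx2 and six6b were most unlike (-0.69). Among 4740 genes the closest to rx1 was rhebl1 (0.93), to rx2 mrpl51 (0.94), to rx3 pcdh20_2 (0.91), to six3a si:ch211-284f22.3 (0.86), to six3b stk35l (0.91), to six6a vgf (0.90), to six6b tmem9b (0.92), to lhx2b mrps31 (0.77) and to lhx9 kif13ba (0.90). Each is the highest of 4740 values over 13 points, and how high such a value runs by chance was not tested.

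Between the sorts the eye field genes could not be told apart. Over all retinal barcodes 0 of 9 passed edgeR's adjusted p of 0.05 in 3 mCherry-enriched against 3 eGFP-enriched libraries, where 0.017% of all genes did (2 of 11757, with 239 at an unadjusted p under 0.05), and 0 of 9 passed with DESeq2. At an unadjusted p under 0.05 there was 1, six6b. It had 240, 262 and 208 CPM in mCherry-enriched replicates 1 to 3 and 184, 133 and 199 CPM in eGFP-enriched replicates 1 to 3, with no overlap, a log2 fold change of 0.43 ± 0.18 (SE, edgeR adjusted p = 1.00).

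The other 8 genes lay between -0.40 ± 0.25 (rx2) and 0.32 ± 0.23 (six6a) on the log2 scale, mCherry-enriched over eGFP-enriched. With the replicate number as a block, 14 genes passed and 0 of them was an eye field gene, while rx2 and six6b had an unadjusted p under 0.05 in edgeR. Between libraries of 1 number, six6a, six6b and lhx2b were higher and rx2 was lower in the mCherry-enriched library in 3 of 3 pairs. The share of all genes that went the same way in 3 of 3 pairs is not given here, so no difference between the sorts is read from this. Reporter transcripts were sparse in retinal barcodes, with 84, 1 and 18 mCherry UMIs in the mCherry-enriched libraries and 28, 0 and 14 in the eGFP-enriched libraries. The eGFP UMIs were 272, 10 and 177 against 710, 8 and 808, in the same order of replicates.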

How the data were processed

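The authors counted reads per gene and barcode for all barcodes and deposited raw UMI counts, without filter or normalisation, on GRCz11 with added eGFP and mCherry. The labels and methods name Cell Ranger 6.1.2, and the header of the count files names another release, so the version is uncertain. The labels also name Seurat 4 for later steps, whose output was not used here. Raw barcodes include empty droplets, and alignment to the 3' end can split reads of paralogues.

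Barcodes with at least 1000 genes and at most 10% UMIs of the 13 mitochondrial genes were kept (median 5017 to 12222 UMIs per library). Barcodes with over 1% of UMIs in markers of red blood cells and other non-retinal tissue were set aside first, a step added once an initial clustering was known and decided without eye field values. Clusters came from Seurat 5.3.0 with sctransform 0.4.2 and 50 principal components. Libraries were aligned with Harmony, written anew in Python, over 15 dimensions. The neighbour graph used 20 neighbours, and Louvain was run at a resolution of 0.6. Eye field genes were left out of the features. Clusters were named from marker lists of up to 12 genes, where the mean log2 difference was at least 1.0 and at least 3 markers were higher. A cluster of 342 barcodes named as stem cells was mixed, so barcodes placed in non-retinal or unnamed clusters by a second clustering on log-normalised values left their class. This changed 226 barcodes and left 163 as stem cell-like, and 256 retinal barcodes stayed unnamed. Rebuilt classes can differ from the study's clusters.

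UMI counts were summed per library and class (at least 10 barcodes) and tested with edgeR 4.0.16 in R 4.3.3 (TMM, quasi-likelihood, filterByExpr, Benjamini-Hochberg over all genes tested, threshold 0.05). Class and neuron comparisons had the library as a covariate. The quasi-likelihood test gives no SE. Each SE printed with an edgeR fold change is therefore an approximation, the size of the log2 fold change over the square root of the test's F statistic. Between the sorts 3 libraries stood against 3, with no block. Libraries of the same replicate number deviated together (r = 0.32, 0.18 and 0.23), so the number was also fitted as a block. DESeq2 1.42.0, other filters, clusterings, thinning and left-out libraries served as alternatives, and 2 of them, those without replicate 1 of both sorts and without the second clustering, were chosen after seeing the data. Shares have exact binomial intervals. Log2 ratios within a library used a pseudocount of 1 CPM. On simulated counts edgeR recovered 87% of 200 genes changed 4-fold in the stem cell-like comparison (10367 genes), 94% in the RGC-like (9313 genes) and 92% between the sorts (11757 genes), and of 2-fold changes 25.5%, 56% and 33.5%. The simulation used 1 dispersion of 0.05 for every gene and changed only genes with an expected count of at least 10. It held no further variation between libraries, so these shares may not apply to the real libraries or to genes of low counts. Scripts ran in Python 3.11.15 with pandas 2.3.3, scikit-learn 1.9.0, scipy 1.17.1, numpy 2.4.6 and matplotlib 3.10.9, and in R with Matrix 1.6.5.

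The eye field genes, their partners and the markers were chosen with earlier results of these data known. Named genes are the 9 members, the partners and, for each member, the gene most alike over classes. Of 18 partners 17 were found, and 14 could be tested in at least 1 comparison. Sequences were not analysed here. Results of 1 partner are not reported here.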

Additional observations from a re-analysis of the deposited data

Results flagged for a closer look

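Among 90 groups of 4 or more libraries, 4 held a library far from the rest, where chance gives about 1 in 20. In OFF bipolar-like cells rx3 was 633 CPM in eGFP-enriched replicate 3 against 143 to 214 CPM in the other 4 libraries, and lhx2b was 41.8 CPM in mCherry-enriched replicate 1 against 0 to 10.2 CPM. In PR-like cells mCherry-enriched replicate 2, with 11 barcodes, had rx1 at 240 CPM (14 UMIs) against 35.9 to 69.6 CPM and six6b at 326 CPM (19 UMIs) against 98.8 to 120 CPM.

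The 84 pigment cell-like barcodes, which no comparison used, carried 3 eye field genes. With all UMIs 44.0% had six3a, 38.1% lhx2b and 27.4% six6a, against 7.28%, 3.97% and 2.65% of 302 mesenchyme-like and epidermis-like barcodes at similar depth (median 11131 and 12533 UMIs). Thinned to 1000 UMIs the shares in pigment cell-like barcodes were 4.76% (six3a), 8.33% (lhx2b) and 0 of 84 (six6a). That count of 0 allows a share of barcodes with a UMI of up to 3.57% by the limit of 3 counts, and up to 4.30% by the exact interval, at that depth only.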

How the results depend on the processing

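Of the class calls 39 of 61 were lost under at least 1 alternative, but 59 of 61 never turned sign, and 22 were kept throughout. The minimum of 1500 genes lost 20 of the 61, and leaving out eGFP-enriched replicate 3 or mCherry-enriched replicate 3 lost 29 and 23. With DESeq2 the median of all genes moved by up to -0.18 (stem cell-like), and no eye field call turned. The replicate block changed no call of an eye field gene (0 of 9) and gave 14 genes between the sorts against 2. For each changed value the cause was not tested.

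Turned values were rx3 at -0.059 and six3b at -0.16 in early bipolar-like cells with log-normalised clustering, where the class of that name had other leading genes. Between the sorts, where no gene of the list passed, with a library left out rx1 ranged from -0.28 to 0.075, six3a from -0.0073 to 0.33 and lhx9 from -0.41 to 0.085. The turns came without eGFP-enriched replicate 2 for rx1 and six3a and without mCherry-enriched replicate 2 for lhx9. Without the 5% of barcodes with most UMIs rx1 turned to 0.051. Thinned, rx1 turned to 0.048, six3a to -0.28 and six6a to -0.058. With the classes that a library held weighted equally, rx2 turned to 0.028, rx3 to 0.089 and lhx9 to 0.13. That setting did not weigh the same classes in both sorts, so these turns are not a like-for-like comparison. In eGFP-enriched replicate 2 only 1 class, progenitor-like, had enough barcodes, against 7 to 13 classes in the other libraries. With 1500 genes rx3 turned to 0.24.

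Eye field calls over classes were 61, and 94 without replicate 1 of both sorts, where 17.6% and 32.5% of all pairs passed. With each library left out they were 32 to 67, where 9.05% to 20.9% of all pairs passed. After thinning to 1000 UMIs they were 37. Some of these genes could not be tested at that depth, so the 37 is not a like count. In neurons against dividing classes 8 genes passed, where 47.5% of all genes did. It was 6 to 9 when libraries were left out, where 2364 to 4253 of all genes passed. After thinning it was 3, when only six3a, six3b and six6b could be tested. The shares of all pairs and of all genes that passed after thinning are not given here, so the 37 and the 3 cannot be set against them. Shares with a UMI rose with all UMIs to 74.8% (rx1), 56.9% (rx2), 24.3% (rx3), 80.2% (six3a), 52.5% (six3b), 40% (six6a), 90.6% (six6b), 26.3% (lhx2b) and 49.7% (lhx9).

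The number of all genes past the threshold moved more. Thinned to 1000 UMIs it was 668 against 3677 in stem cell-like, 981 against 2541 in progenitor-like, 479 against 1071 in Müller glia-like, 733 against 266 in PR progenitor-like, 523 against 1247 in PR-like, 570 against 1783 in early bipolar-like, 795 against 2079 in ON bipolar-like, 675 against 1935 in OFF bipolar-like, 822 against 1561 in amacrine-like, 421 against 1204 in cholinergic amacrine-like, 172 against 291 in horizontal-like and 919 against 2327 in RGC-like cells, 962 against 4192 for neurons and 0 against 2 between the sorts. With no filter it was 3854 (progenitor-like), 1858 (Müller glia-like), 1502 (PR progenitor-like), 1982 (PR-like), 2807 (amacrine-like), 548 (horizontal-like), 990 against 284 (early RGC-like), 3632 (RGC-like) and 43 (sorts). With 1500 genes it was 1397 (progenitor-like), 526 (Müller glia-like), 269 (PR-like), 654 (ON bipolar-like), 900 (amacrine-like), 523 (cholinergic amacrine-like) and 1 (sorts). Log-normalised clustering gave 4082 (progenitor-like), 3775 (ON bipolar-like), 852 (horizontal-like), 883 (early RGC-like) and 963 (RGC-like), and a resolution of 1.0 gave 669 (Müller glia-like). DESeq2 gave 977 (PR progenitor-like), 2354 (amacrine-like), 701 (cholinergic amacrine-like), 154 (horizontal-like) and 3852 (RGC-like). No library covariate gave 849 (PR progenitor-like) and 70 (horizontal-like). Without the 5% of barcodes with most UMIs it was 1359 (PR progenitor-like), 2413 (amacrine-like) and 570 (early RGC-like). Without replicate 1 of both sorts it was 1841 (Müller glia-like), 3564 (PR progenitor-like), 2402 (PR-like), 3054 (amacrine-like), 1011 (horizontal-like), 1394 (early RGC-like) and 3907 (RGC-like).

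With each library left out in turn the counts ranged from 1940 to 4990 (stem cell-like), 922 to 2662 (progenitor-like), 633 to 1234 (Müller glia-like), 0 to 273 (PR progenitor-like), 649 to 2402 (PR-like), 1017 to 1931 (early bipolar-like), 1099 to 2070 (ON bipolar-like), 1418 to 1872 (OFF bipolar-like), 258 to 1305 (amacrine-like), 464 to 1482 (cholinergic amacrine-like), 35 to 1011 (horizontal-like), 115 to 394 (early RGC-like), 1103 to 2069 (RGC-like), 2364 to 4253 (neurons) and 0 to 24 (sorts).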
